A study of Mus musculus with 6 samples.

Results

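The synucleins and the genes of inherited parkinsonism were followed by name in the ventral midbrain of mouse embryos without the homeobox transcription factor Pitx3. The genes were Sncb, Sncg, Park7, Uchl1, Pink1, Lrrk2, Vps35, Atp13a2 and Fbxo7. All probes whose platform symbol or synonym matched 1 of these 9 genes were taken, without regard to their values. This gave 12 probes, out of 31769 gene probes on the array, whose named ones cover 17865 genes. Lrrk2 had 3 probes, Atp13a2 had 2 and the other 7 genes had 1 each.

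The mutant group was Pitx3-/- ventral midbrain at E14.5, as 3 pools of 3 dissected midbrains each. The reference was 1 RNA from 10 Pitx3+/+ ventral midbrains of the same day. Each mutant pool was hybridised against it on 2 arrays of a spotted long-oligonucleotide platform, with the mutant in Cy5 on one and in Cy3 on the other, which made 6 arrays. The sources used here do not name the mutant allele or the strain. As embryos were pooled and the reference was a single RNA, neither the spread between embryos nor that of the wild type was measured. In such whole-tissue RNA, fewer cells of a type and less RNA per cell cannot be told apart.

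Synucleins are small proteins that bind synaptic vesicle membranes. The other genes carry mutations in inherited parkinsonism or were linked to it, and they fall into a few cell functions. Pink1 marks damaged mitochondria for removal. Lrrk2, Vps35 and Atp13a2 act in endosomes and lysosomes. Park7, Uchl1 and Fbxo7 act in redox defence and in ubiquitin handling. The disease destroys dopaminergic neurons of the substantia nigra, and Pitx3 is needed for these same neurons to develop.

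Pitx3 belongs to the bicoid-like homeodomain proteins, whose preferred site is TAATCC. The 250 bases before the annotated start were available for 8 of the 9 genes, in 9 windows from RefSeq on GRCm38.p6, and were searched on both strands. TAATCC was found in 1 member window, that of Park7, and in 6.25% of all 32851 windows. Its first 5 bases, TAATC, were found in the windows of Sncg, Park7 and Uchl1 and in 19.8% of all windows. The Park7 match to the shorter motif lies inside the match to the longer one. The 3 windows are shown because they hold the preferred site, in Park7, or only its first 5 bases, in Sncg and Uchl1. They lie at chr14:34374670-34374919 (minus strand) for Sncg, chr4:150909922-150910171 (minus strand) for Park7 and chr5:66675871-66676120 (plus strand) for Uchl1. Each reads 5′ to 3′ towards the gene, and capitals mark the match, which in all 3 is on the opposite strand.
Sncg: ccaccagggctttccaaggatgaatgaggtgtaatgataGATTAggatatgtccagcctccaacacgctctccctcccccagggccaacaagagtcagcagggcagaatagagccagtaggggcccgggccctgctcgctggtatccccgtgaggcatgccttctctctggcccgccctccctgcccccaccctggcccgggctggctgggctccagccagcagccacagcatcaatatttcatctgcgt
Park7: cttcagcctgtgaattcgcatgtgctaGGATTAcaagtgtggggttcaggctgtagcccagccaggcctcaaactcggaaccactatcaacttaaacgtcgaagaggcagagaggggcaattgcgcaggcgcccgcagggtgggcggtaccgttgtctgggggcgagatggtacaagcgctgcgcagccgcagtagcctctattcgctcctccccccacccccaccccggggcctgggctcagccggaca
Uchl1: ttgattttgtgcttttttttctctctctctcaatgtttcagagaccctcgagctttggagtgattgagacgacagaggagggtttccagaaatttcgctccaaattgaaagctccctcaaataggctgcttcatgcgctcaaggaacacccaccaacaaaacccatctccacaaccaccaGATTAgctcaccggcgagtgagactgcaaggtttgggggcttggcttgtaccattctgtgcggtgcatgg
Between the match and the annotated start lie 206 bases in Sncg, 217 in Park7 and 65 in Uchl1. A match describes these letters only and is not a binding site. GC content of the member windows ran from 48.8% in Uchl1 to 70% in a second Fbxo7 window, and 8 of 9 were above the median of all windows, 52.4%.

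The median spot of an array was dim. It gave 70.6 to 77.5 in Cy5, where background was 58.7 to 62.0, and 46.2 to 50.4 in Cy3, where background was 38.3 to 41.3. Of 9 markers of midbrain dopaminergic neurons, 7 were above background in at least 1 channel on all 6 arrays, Aldh1a1 among them through the reference alone. Lmx1b was above it on none, and Slc6a3 only in the reference, on 2 arrays. Slc18a2, the vesicular dopamine transporter gene, stood at -0.38, -0.38 and -0.32 in pools 1, 2 and 3 (log2 mutant over reference, adjusted p = 0.19 in limma's test). Of the 9 markers 3 were above 0, and the median ratio was -0.12. At an unadjusted p under 0.05 in limma's test, 5 were lower and 2 higher, against 2.41% and 2.46% of all gene probes. Besides Slc18a2 the lower ones were Aldh1a1, Th, Nr4a2 and Slc6a3, with means of -0.18, -0.14, -0.13 and -0.12. Th was not lower in pool 1, with 0.021, -0.22 and -0.23 in the 3 pools and an interval from -0.28 to -0.0004. The other lower ones were below 0 in every pool. The list did not move one way, as En1 stood at 0.82, 0.86 and 0.39 and Foxa2 at 0.13, 0.34 and 0.069. Both encode transcription factors of these neurons and their precursors. The Pitx3 probe was above background on no array, so it is no check of the genotype. Pool 3 stood apart. Across the 31769 probes, which share 1 reference RNA, the ratios of pools 1 and 2 correlated at r = 0.585, but those of pools 1 and 3 at -0.214 and of pools 2 and 3 at -0.194. Results that rest on pool 3 are therefore given with and without it.

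The first question was whether these transcripts could be measured at all. A spot was called above background if it was brighter than the mean of its surroundings plus 2 SDs of them. For 9 of the 12 probes this held in both channels on all 6 arrays, against 40.1% of all gene probes (43.7% in at least 1 channel). These were the single probes of Sncb, Sncg, Park7, Uchl1, Pink1 and Vps35, both Atp13a2 probes and 1 of the 3 Lrrk2 probes. The other 2 Lrrk2 probes were above background on no array in either channel, as were 39.8% of all gene probes. The Fbxo7 probe was above it on 1 array only, a pool 3 array, in both channels. Levels of different probes cannot be ranked, since each oligonucleotide binds with its own strength.

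**Figure D1:**
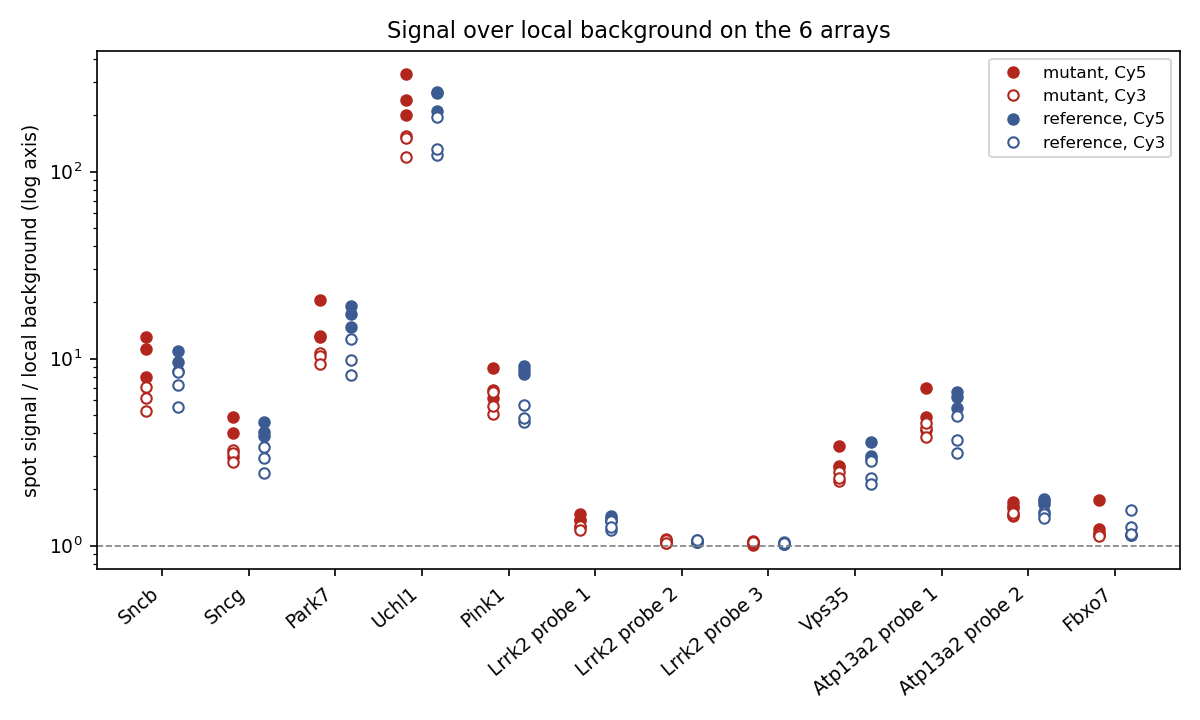
Spot signal divided by local background (log axis) for each of the 12 probes on the 6 arrays, with mutant spots left of reference spots and filled symbols for Cy5. Uchl1 spots lie far above the dashed line at 1, where signal equals background, while Lrrk2 probes 2 and 3 lie just above it. Heights of different probes are not levels of different genes.

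The comparison then asked whether levels of these transcripts depend on Pitx3. After Benjamini-Hochberg adjustment of limma's p-values no synuclein or parkinsonism probe passed 0.05, and none of the 31769 did (0%). Mean ratios ran from -0.020 for Vps35 to 0.075 for Uchl1, with a median of 0.015, against -0.0001 over all gene probes. Of the 12, 9 were above 0, as were 15828 of all 31769 gene probes. With median centring in place of loess the member median was -0.021, and 3 of the 12 were above 0. The means of Sncb, Sncg, Park7, Uchl1, Pink1 and both Atp13a2 probes turned negative. The shift was not particular to these genes. Median centring left the median of all gene probes at -0.0002. Over all probes above background in at least 1 channel on all 6 arrays, it gave a median of -0.042, against -0.0014 with loess. With loess, the main scaling, none of the 12 means reached 0.1 in size, as 1.27% of all probes did. The counts that follow also use loess. At an unadjusted p under 0.05 stood 2 probes, Uchl1 and Atp13a2 probe 1, both higher in the mutant. Of all gene probes, 4.87% reached that level, 2.46% as higher and 2.41% as lower. No member had the same sign on all 6 arrays, which 1.28% of all probes had as higher and 1.34% as lower. Atp13a2 probe 1, Lrrk2 probe 3 and Pink1 were above 0 in all 3 pools, as were 12.9% of all probes.

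The intervals give sizes of change relative to this reference under the main scaling. For the 9 probes above background, the 95% intervals of the fold, mutant over reference, all lay between 0.952 and 1.108. The offset of 50 added to each signal pulls ratios towards 0. With an offset of 0 the same 9 intervals lay between 0.844 and 1.222. The scaling mattered too. With median centring the means of Sncb, Sncg and Lrrk2 probe 1 stayed inside their main intervals. Those of Park7, Uchl1, Pink1, Vps35 and both Atp13a2 probes fell outside theirs. A missed threshold does not show that a level was the same, and the intervals hold only the spread between pools.

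**Figure D2:**
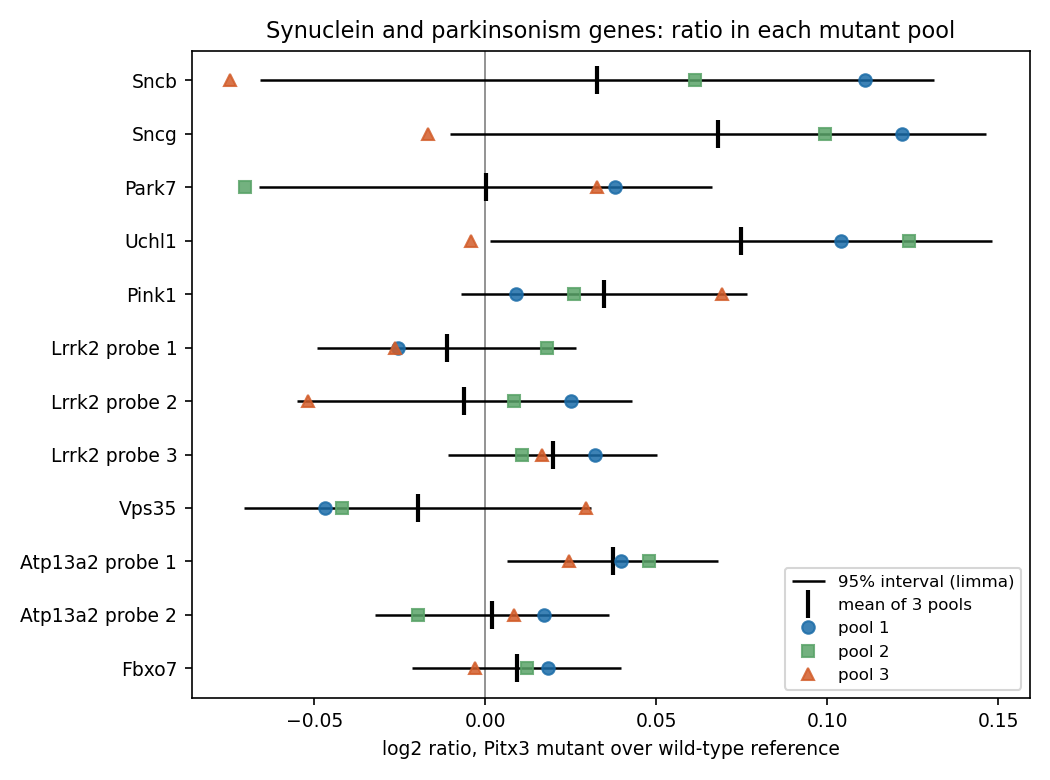
Log2 ratio of Pitx3 mutant over wild-type reference for each probe, with 1 symbol per pool, a bar at the mean of 3 pools and a line for limma's 95% interval. In Sncb, Sncg and Uchl1 pools 1 and 2 lie above 0 and pool 3 lies below it, and every interval but those of Uchl1 and Atp13a2 probe 1 includes 0.

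Among the synucleins, Sncb encodes beta-synuclein of presynaptic terminals. In Cy5 its signal was 478 to 788 in mutant pools and 553 to 652 in the reference, and in Cy3 it was 223 to 287 and 231 to 342. Its log2 ratios were 0.11, 0.061 and -0.075 in pools 1, 2 and 3. The pools thus lay on both sides of 0, with pool 3 lowest. The mean was 0.033 ± 0.096 (SD, n = 3), or 1.02-fold, with an interval from -0.066 to 0.13 and an adjusted p of 0.93 in limma's test.

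Sncg encodes gamma-synuclein, which is abundant in peripheral and motor neurons. Its Cy5 signal was 174 to 285 in mutant pools and 237 to 274 in the reference, and its Cy3 signal was 109 to 127 and 86.8 to 131. Ratios were 0.12, 0.099 and -0.017, again with pool 3 lowest and alone below 0. The mean was 0.068 ± 0.074 (SD, n = 3), or 1.05-fold, with an interval from -0.010 to 0.15 and an adjusted p of 0.91 in limma's test. Both dye orientations gave a positive mean, 0.091 with the mutant in Cy5 and 0.045 with the mutant in Cy3.

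Markers of sensory ganglion neurons and of cholinergic and oculomotor neurons were read beside Sncg, and those of dopaminergic neurons are given above. Of 8 sensory ganglion markers 6 were measured, 2 of them above background on all 6 arrays, while Scn10a and Ret were above it on none. Of 7 cholinergic and oculomotor markers 5 were measured and 3 were above background, while Phox2a and Chat were above it on none. The lists had median ratios of -0.0012 and 0.0044. Prph, an intermediate filament gene on both lists, stood at 0.040, 0.069 and 0.053 in the 3 pools. Isl1, a LIM homeobox gene of motor neurons, stood at -0.63, -0.54 and 0.054. Their part in the Sncg ratio was not tested.

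Uchl1 encodes an ubiquitin hydrolase that is abundant in neurons. Its Cy5 signal was 11846 to 19517 in mutant pools and 12918 to 16672 in the reference, and its Cy3 signal was 4727 to 6348 and 5124 to 7730. Ratios were 0.10, 0.12 and -0.0040 in pools 1, 2 and 3, so that pool 3 lay at about 0. The mean was 0.075 ± 0.069 (SD, n = 3), or 1.05-fold, with an interval from 0.0013 to 0.15. Limma's test gave an adjusted p of 0.91.

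Park7 encodes DJ-1, a redox-sensitive protein. Its Cy5 signal was 777 to 1196 in mutant pools and 926 to 1138 in the reference. Ratios were 0.038, -0.070 and 0.033, with pool 2 alone below 0. The mean was 0.0002 ± 0.061 (SD, n = 3) and the interval ran from -0.066 to 0.066. Fbxo7, a substrate adaptor of an SCF ubiquitin ligase, had ratios of 0.018, 0.012 and -0.0029. As it was near background, these say little about its level.

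Pink1 encodes the kinase that starts the clearance of damaged mitochondria. Its Cy5 signal was 354 to 525 in mutant pools and 483 to 564 in the reference, and its Cy3 signal was 206 to 254 and 176 to 229. Ratios were 0.0089, 0.026 and 0.069, all above 0, with a mean of 0.035 ± 0.031 (SD, n = 3) and an adjusted p of 0.91 in limma's test. The single arrays spread more widely than these means. Pool 1 gave 0.21 with the mutant in Cy5 and -0.19 with the mutant in Cy3, so its mean near 0 rests on 2 opposed values.

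In the endosomal and lysosomal group, Vps35 encodes a core subunit of retromer, which returns receptors from endosomes. It stood at -0.047, -0.042 and 0.030, with pool 3 alone above 0, and at -0.020 ± 0.043 on average (SD, n = 3). Lrrk2, a kinase of Rab GTPases, had 1 probe above background, with -0.026, 0.018 and -0.026 in the 3 pools. Its spot signal in Cy5 was 79.9 to 87.3 in mutant pools and 83.7 to 87.5 in the reference, over backgrounds of 58.5 to 62.7. The other 2 Lrrk2 probes were brighter than their local background on every array, but by less than the 2 SDs required, in both groups. Their ratios enter the counts over the 12 probes, and no fold is given for them.

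Atp13a2 encodes a lysosomal transporter of polyamines and was read by 2 probes. The brighter one stood at 0.040, 0.048 and 0.024 in the 3 pools, with a mean of 0.037 ± 0.012 (SD, n = 3) and an adjusted p of 0.91 in limma's test. The dimmer one stood at 0.017, -0.019 and 0.0084, with a mean of 0.0021 ± 0.019 (SD, n = 3). Only the brighter probe thus had the same sign in every pool. The place of each oligonucleotide on the transcript was not analysed here. Both changed sign with the dye, as described next.

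On several of these probes the normalised dyes differed by more than mutant and reference did. For each pool the log2 ratio of Cy5 over Cy3 was taken from its 2 arrays and tested against 0 with limma. It passed an adjusted p of 0.05 for 5 of the 12 probes, and for 25.6% of all gene probes. Loess sets this ratio to about 0 for the bulk of probes at each intensity, so it says only how a probe stood relative to other probes, and the unscaled signals were higher in Cy5 throughout. Sncb and Park7 lay towards Cy5, at 0.073 ± 0.019 and 0.064 ± 0.022 (SD, n = 3). Uchl1 and both Atp13a2 probes lay towards Cy3, at -0.14 ± 0.040, -0.055 ± 0.039 and -0.042 ± 0.018. The mean of both arrays of a pool cancels this term.

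A reading from 1 orientation would have differed. With the mutant in Cy3, Uchl1 stood at 0.22 and passed the adjusted test (limma, adjusted p = 0.029), as did 430 of all probes (1.35%). With the mutant in Cy5 it stood at -0.068 and did not pass. Atp13a2 probe 1 stood at -0.018 with the mutant in Cy5 and at 0.092 with the mutant in Cy3. Park7 stood at 0.065 and -0.064 in the same order.

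**Figure D3:**
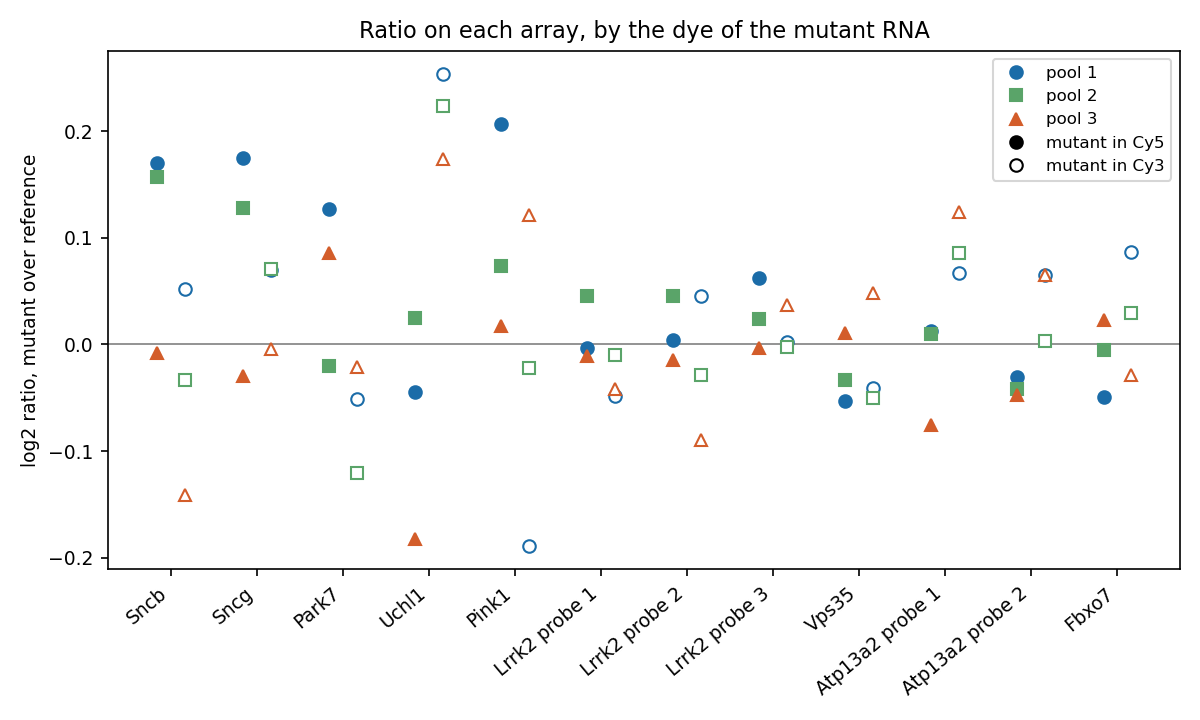
Log2 ratio of mutant over reference on each of the 6 arrays, with filled symbols where the mutant RNA was in Cy5 and open symbols where it was in Cy3. All 3 open symbols of Uchl1 lie above its 3 filled ones, and the 2 arrays of pool 1 lie far apart for Pink1.

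Pool 3 was the lowest of the 3 pools for 7 of the 12 probes, and for 36.4% of all gene probes. Over probes above background the counts were 5 of 9 and 40%. The gap was widest for Sncb, Sncg and Uchl1, where pool 3 lay below the mean of pools 1 and 2 by a log2 difference of -0.16, -0.13 and -0.12. It appeared in both dye orientations, at -0.17 and -0.15 for Sncb, -0.18 and -0.074 for Sncg, and -0.17 and -0.064 for Uchl1, with the mutant in Cy5 and in Cy3. Vps35 went the other way, with pool 3 higher by 0.074.

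When pool 3 was left out, 2 of the 12 probes had an adjusted p under 0.05 in limma, both higher: Sncg at 0.11 (adjusted p = 0.020) and Uchl1 at 0.11 (adjusted p = 0.018). So did 1543 of all probes (4.86%), on only 2 pools. With all 3 pools neither passed. The pattern also depended on the scaling. With median centring in place of loess, Sncg had 0.039, 0.027 and -0.088 in pools 1, 2 and 3, but Uchl1 had -0.029, -0.064 and 0.049, with pool 3 highest. Sncb had 0.015, -0.059 and -0.041, with pool 2 lowest. In the authors' deposited log2 ratios, pool 3 was lowest for all 3 genes, with Uchl1 at 0.068, 0.044 and 0.010.

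A mixed list of synuclein partners and genes of the presynaptic terminal was read next, with 19 of 20 genes measured and 18 above background. None passed after adjustment. Pool 3 was lowest for 13 of the 19, against 36.4% of all gene probes and 40% of those above background. The list's median ratio was 0.050, 0.078 and -0.022 in pools 1, 2 and 3. Septin4 stood at 0.052 ± 0.034 and Gpr37, an orphan receptor gene of neurons and glia, at 0.039 ± 0.033 (SD, n = 3). Named after their values were seen, Vamp2, Syn1 and Syp of the synaptic vesicle had pool 3 lowest. Vamp2 had 0.28, 0.24 and -0.068, Syn1 had 0.26, 0.21 and -0.12, and Syp had 0.24, 0.085 and -0.053. Not all genes of the terminal showed such a gap. Syn2 had -0.0048, 0.025 and 0.099, with pool 3 highest, and Snap25 had -0.053, 0.11 and 0.066, with pool 1 lowest. Syt1 and Sv2a also had pool 3 lowest but differed little between pools, at 0.023, -0.018 and -0.023 for Syt1 and -0.0071, -0.015 and -0.022 for Sv2a.

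Pool 3 was read in other lists as well. Over all gene probes it was lowest for 36.4%, and for 40% of those above background. Of 10 young neuron markers, which share Snap25 with the list above, 4 had pool 3 lowest, and the medians were 0.031, 0.047 and 0.036 in pools 1, 2 and 3. At an unadjusted p under 0.05, 4 were higher and 0 lower, against 2.46% and 2.41% of all gene probes, and none passed after adjustment. Single markers differed. Elavl3 had 0.16, 0.12 and -0.13 and Tubb3 had 0.098, 0.037 and -0.088 in the 3 pools, while Gap43 had -0.16, -0.093 and 0.078. Nefl stood at 0.044 ± 0.011 and Stmn2 at 0.061 ± 0.036 (SD, n = 3). Of 7 progenitor markers 4 had pool 3 lowest, with medians of 0.067, 0.030 and -0.026. Among them were Nes at 0.33, 0.26 and -0.093 and Vim at 0.14, 0.11 and -0.065, both genes of intermediate filaments. Sox2 went the other way, at -0.10, -0.054 and -0.026, with pool 3 highest. Pax6 and Hes5 had pool 1 lowest but were above background on no array. Dopaminergic markers had medians of 0.021, -0.061 and -0.11, and 5 of 9 had pool 3 lowest. In the other marker lists the share ran from 1 of 5 cholinergic and oculomotor genes to 5 of 8 genes of meninges and vessels. In the pathway lists read below, it was 7 of 30 genes of mitochondrial clearance, 7 of 23 of retromer and 7 of 19 of the lysosome. It was 6 of 22 for the proteasome list, 6 of 19 for Lrrk2 partners and 6 of 22 for oxidative defence. The part of these lists in the synuclein ratios was not tested.

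Partners of Pink1 in mitochondrial clearance had 30 of 32 members measured and a median ratio of -0.0057. None passed after adjustment. At an unadjusted p under 0.05, 2 were higher and none lower, against 2.46% and 2.41% of all gene probes. Tomm22 of the mitochondrial import complex stood at 0.049 ± 0.023 and the outer membrane channel gene Vdac1 at 0.057 ± 0.046 (SD, n = 3). Vdac1 was at -0.040 on arrays with the mutant in Cy3.

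Retromer and endosomal sorting genes had 23 of 25 members measured and a median of 0.0016. At an unadjusted p under 0.05, 1 was higher and 1 lower, against 2.46% and 2.41% of all gene probes. The lower one was Synj1, a phosphoinositide phosphatase of endocytosis that is itself mutated in early parkinsonism, at -0.060 ± 0.047. The higher one was Washc3 of the WASH complex at 0.042 ± 0.030 (SD, n = 3). Lysosomal genes had 19 of 22 measured and a median of 0.0015, with Gaa and Ctsl, which encode lysosomal hydrolases, at 0.076 ± 0.042 and 0.047 ± 0.022. Ctsl was at -0.092 with the mutant in Cy5 and at 0.19 with the mutant in Cy3.

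Rab GTPases and other partners of Lrrk2 had all 19 members measured and a median of 0.0099. At an unadjusted p under 0.05, 1 was higher and 2 lower, against 2.46% and 2.41% of all gene probes. The higher one was Rab35, at 0.024, 0.024 and 0.043 in the 3 pools. It was at -0.016 on arrays with the mutant in Cy3. Rab12 and Rab10 were the 2 lower ones. Rab12 stood at -0.041, -0.064 and -0.041 in the 3 pools, and Rab10 at -0.11, -0.044 and -0.034. Each was below 0 in every pool and had a negative mean in both dye orientations, and neither passed after adjustment (adjusted p = 0.91 for both in limma's test).

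Ubiquitin and proteasome genes, 22 of 22 measured, had a median of -0.021, and pool medians of -0.060, -0.026 and 0.025. Stub1, a ubiquitin ligase gene, stood at 0.052 ± 0.025 and the proteasome subunit gene Psmd4 at -0.043 ± 0.031 (SD, n = 3), both with opposite signs in the 2 dye orientations. Oxidative defence genes, which share a role with Park7, had 22 of 23 measured and a median of 0.0041. Prdx2 stood at 0.043 ± 0.029 and Sod1 at 0.042 ± 0.046 (SD, n = 3). No member of either list passed after adjustment.

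**Figure D4:**
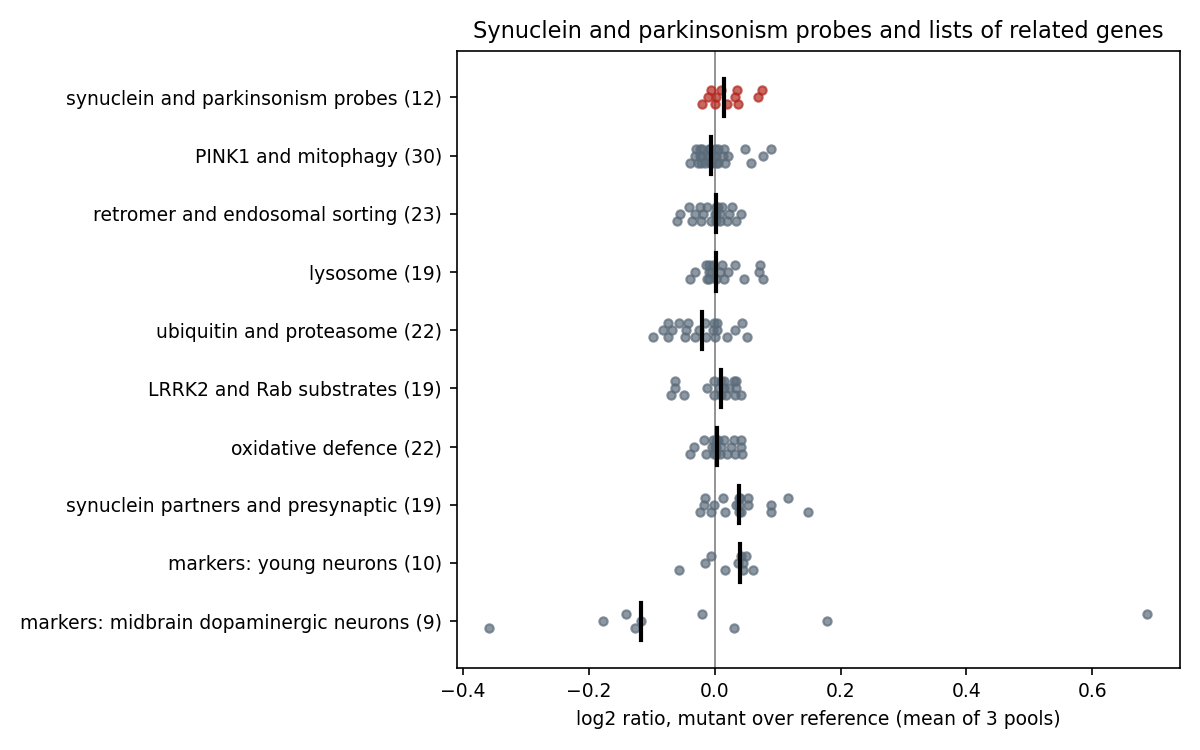
Mean log2 ratio of mutant over reference for the 12 synuclein and parkinsonism probes (top) and for genes of related lists, 1 point per probe or gene, with a bar at each median and the number measured in brackets. The synuclein and parkinsonism probes lie between -0.020 and 0.075, while the dopaminergic markers spread from -0.36 to 0.69.

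Markers of other cells in the dissected tissue were read as well, and none passed after adjustment. Median ratios were 0.016 for 7 erythroid genes, 0.021 for 7 progenitor genes, 0.023 for 7 microglial genes and 0.017 for 8 genes of meninges and vessels. Tfrc, the transferrin receptor gene, stood at -0.11 ± 0.045 and the globin gene Hba-a1 at 0.13 ± 0.13. Sox2 and Nes of progenitors stood at -0.061 ± 0.039 and 0.17 ± 0.23. C1qa and C1qb of microglia stood at 0.048 ± 0.0091 and 0.068 ± 0.036, and the endothelial gene Pecam1 at 0.057 ± 0.027 (SD, n = 3).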

How the data were processed

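Spots were scanned on an Agilent instrument and quantified with ImaGene, per the protocol descriptions deposited with the files. The deposited scanner files hold intensity values for each spot and its local background in both channels, and the authors' derived files hold intensity values after print-tip loess (span 0.4) with no background subtracted, as those descriptions state. The deposited series matrix holds log2 ratios, which matched those of the derived files, once all were mutant over reference, to 5e-06. Their software versions are not known here.

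Scanner values were processed with limma 3.58.1 in R 4.3.3: normexp on the mean signal and median local background (offset 50), global loess (span 0.3, 3223 control spots at weight 0 and then left out of 34992), and the mean over both arrays of a pool, tested against 0 with lmFit and eBayes. Benjamini-Hochberg adjustment ran over 31769 probes, with 0.05 as the threshold. The pool was the replicate (n = 3, with 2 residual and 2.74 prior degrees of freedom), and the reference's own spread is left out. The number of arrays limits the precision. Files used here have no spot flags, so all spots were kept.

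Symbols came from the platform table (26000 probes named) and were updated through RefSeq names. The array files name no genome build, so coordinates are given for the RefSeq promoter windows only. All probes of the 9 genes are named, and 1 further gene of the choice is not reported here. The 7 pathway and 8 marker lists used the brightest probe per gene, and up to 2 genes per list with the lowest p are named. Other list genes were named with their values known, En1, Foxa2, Elavl3, Tubb3, Gap43, Vim and Rab35 among them. Genes and lists were chosen with earlier results of these data known, and lists have no test of their own. The fit was tested on simulated data. Alternatives covered background, scaling, replicate unit, spread model, dim probes, dye orientation and each pool left out, plus the mean local background, chosen after seeing the data.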

Additional observations from a re-analysis of the deposited data

Results flagged for a closer look

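In Cy3, which held the reference RNA there, the pool 3 array that carried the mutant in Cy5 was dimmer than the other 5. Its median signal was 46.2, while the next lowest median signal was 49.1. The distance between them made up 0.67 of the spread over all 6 arrays. Local background showed the same, with a median of 38.3 there and 40.3 on the next lowest array, again 0.67 of the spread. Both exceed Dixon's critical value at 95%. Chance gives about 1 such value in 20 groups, and 16 were examined, including the ratios of all 12 synuclein and parkinsonism probes, none of which stood apart. The part of this array in the pool 3 ratios of Sncb, Sncg and Uchl1 was not tested beyond the values of each dye orientation given above.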

How the results depend on the processing

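Of 153 ratios of the 12 probes under the alternatives, 124 kept their direction and side of the threshold, 26 changed sign and 3 passed. The fits over single arrays, with an intensity trend and over probes above background return the main means. Their ratios are in these counts although they could not change sign. The count over all probes, 0 in the fit over pools, was 18 over single arrays (random pool effect, dye as a covariate), 11 with an intensity trend in the spread, 312 on arrays with the mutant in Cy5, 430 on arrays with the mutant in Cy3, and between 0 and 1543 with 1 pool left out. The 12 probes had 1 call with the mutant in Cy3 (Uchl1, 0.22), 0 to 2 with 1 pool left out (Sncg and Uchl1 without pool 3, both 0.11) and 0 otherwise. Their median, 0.015, was 0.046 with an offset of 0, -0.021 with median centring, 0.033 over the 9 probes above background, -0.0011 with the mutant in Cy3, and 0.00022 to 0.021 with 1 pool left out. With 3 background SDs 8 probes, and with the background median 9, were above background.

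Median centring turned Sncb to -0.028, Sncg to -0.0071, Park7 to -0.081, Uchl1 to -0.014, Pink1 to -0.052, Atp13a2 probes 1 and 2 to -0.048 and -0.037, and Lrrk2 probe 2 to 0.0084. It moved the median of all probes above background to -0.042 as well. With the mutant in Cy5, Uchl1 was -0.068, Lrrk2 probes 1 and 2 were 0.011 and 0.012, Atp13a2 probes 1 and 2 were -0.018 and -0.040, and Fbxo7 was -0.011. With the mutant in Cy3, Sncb was -0.041, Park7 -0.064 and Pink1 -0.030. Without background subtraction Park7 was -9e-06 and Atp13a2 probe 2 was -0.0026, and in the authors' ratios Atp13a2 probe 2 was -0.0052. With 1 pool left out, ratios that changed sign ran from -0.0066 to 0.086 for Sncb, from -0.019 to 0.035 for Park7, from -0.022 to 0.017 for Lrrk2 probe 2 and from -0.0055 to 0.013 for Atp13a2 probe 2. The cause of these moves was not tested. No paired analysis was possible because all arrays belong to 1 group set against 1 reference RNA. Signals near background limit Fbxo7 and Lrrk2.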
